A study of Mus musculus with 4 samples.

Results

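Open chromatin at genes of JAK-STAT signalling was examined in primary rib chondrocytes of the mouse. ATAC-Seq reads open chromatin through the Tn5 transposase, which puts adapters into DNA that nucleosomes leave free. The 9 genes were chosen by name, not by their values, and were the receptor genes Il6st and Lifr, the kinase genes Jak1 and Jak2, the transcription factor genes Stat3, Stat5a, Stat5b and Stat6, and the inhibitor gene Socs3. They were 9 of 16861 protein-coding genes whose RefSeq start could be placed in both genome builds of the files. A peak was taken as a promoter peak where its summit lay within 1 kb of the gene start, and a locus was the gene body with 50 kb on each side.

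The series held 4 libraries. Cho had 2 replicates (Rep1 and Rep2) of chondrocytes for which the labels give no genotype, and WT had 1 library. The deletion library, also 1, was labelled E160(delta/delta);E308(delta/delta) and came from mice lacking both alleles of E160 and E308, elements upstream of Sox9, which encodes a transcription factor of cartilage. Per the study's methods, all chondrocytes came from rib cartilage of newborn mice and were used within 2 passages, and WT and deletion mice were littermates. The deletion was carried in every cell, not in cartilage alone. With 1 library per genotype, WT and the deletion were compared as libraries, with no test and no p-value.

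In JAK-STAT signalling a cytokine joins receptor chains at the cell surface, and Janus kinases bound to the chains phosphorylate them and the STAT proteins that dock there. STAT proteins then pair, enter the nucleus and bind gamma-activated sites (GAS), written here as TTCNNNGAA. SOCS3, a product of one of their target genes, binds the receptor and the kinase and ends the signal. In growing cartilage the pathway carries signals of the interleukin-6 family through gp130 and of growth hormone through JAK2 and STAT5.

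The peak lists held 76242 peaks in Cho Rep1, 148330 in Cho Rep2, 90971 in WT and 169591 in the deletion. Depth estimated from the background of the lists ran from 4622 tags per Mb in WT to 20817 in Cho Rep2, with 8697 in the deletion. The deletion had 0 peaks over E160 and 1 over E308 with a fold enrichment of 3.07, where WT reached 13.4 and 15.4. Of 7 chondrocyte marker genes measured, 2 had a promoter peak in Cho Rep1 and 6 in each other library. Sox9 and Col2a1 were on the same list of 9 and could not be measured. Among the markers of other cell types, Col1a1, Sp7, Pecam1 and Cdh5 could not be measured either. Of 3 blood, 1 endothelial and 2 muscle markers measured, 0 had a promoter peak in any library. Of 3 epithelial markers, Epcam had one in Cho Rep2 and the deletion, while Krt14 and Krt5 had none in any library. Fibroblast and osteoblast markers had promoter peaks as well, 2 of 3 in Cho Rep1 and 3 of 3 in the others, and their part in the results was not tested.

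All 9 genes had a promoter peak in each library. Across all genes, 59.1% had one in Cho Rep1, 66.3% in Cho Rep2, 62.2% in WT and 67.5% in the deletion, and 56.9% had one in all 4. Their height was read as fold enrichment, the summit pileup of tags divided by the background at that peak, with 1 added to both. In Cho Rep1 this was the constant library background at 100% of entries. In Cho Rep2, WT and the deletion it was a local background, at the 9 genes from 1.81 to 12.6 times the library background. Fold enrichment in Cho Rep1 is thus not strictly the same measure. The median over the 9 genes was 14.8 in both Cho replicates, 13.3 in WT and 12.1 in the deletion. Over all promoters with a peak it was 12.7, 18.1, 12.9 and 12.7, in the same order. By fold enrichment, 6, 4, 5 and 4 of the 9 genes were above the median of their library. By summit pileup over library background 6 of 9 were above it in each library, and the medians of the 9 genes were 24.9, 116, 114 and 92.6, against 21.2, 71.5, 83.2 and 67.1 over all promoters with a peak.

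**Figure D1:**
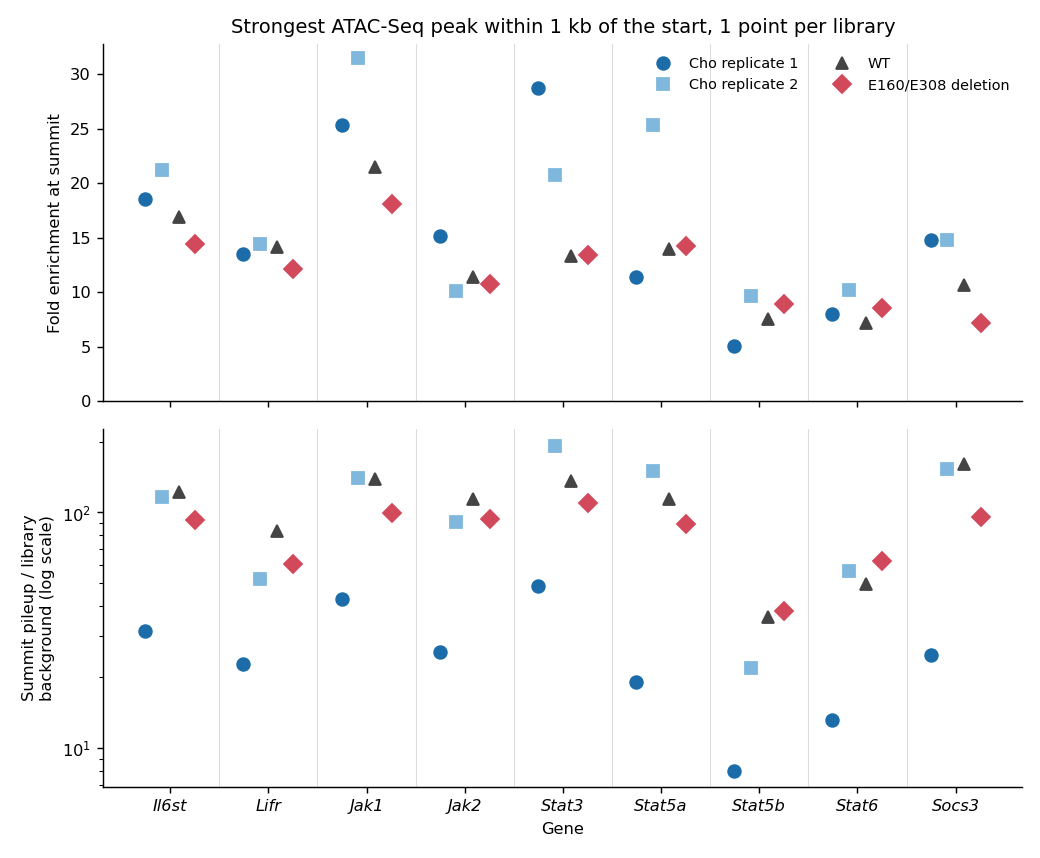
The strongest promoter peak of each gene in each of the 4 libraries, as fold enrichment (upper panel) and as summit pileup divided by the background pileup of the library (lower panel, log scale). Fold enrichment ran from 5.07 at Stat5b in Cho Rep1 to 31.5 at Jak1 in Cho Rep2, and on the lower scale Cho Rep1 was lowest at every gene.

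Among the receptors, Il6st encodes gp130, the chain shared by receptors of the interleukin-6 family. Fold enrichment at its promoter was 18.6 in Cho Rep1, 21.2 in Cho Rep2, 17.0 in WT and 14.4 in the deletion. All 4 summits lay close together, from −58 bp to −27 bp from the start. The Cho mean was 19.9 ± 1.87 (SD, n = 2), and both genotypes lay below both replicates by fold enrichment. By pileup over library background they did not, at 31.4 in Cho Rep1, 116 in Cho Rep2, 122 in WT and 92.6 in the deletion. The bases before the start are shown because every summit fell in them. They lie at chr13:113254028-113254277 on the plus strand of NCBIM37 (mm9), from RefSeq, with the CCAAT box and the GC box (GGGCGG on either strand) in capitals.

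Il6st promoter: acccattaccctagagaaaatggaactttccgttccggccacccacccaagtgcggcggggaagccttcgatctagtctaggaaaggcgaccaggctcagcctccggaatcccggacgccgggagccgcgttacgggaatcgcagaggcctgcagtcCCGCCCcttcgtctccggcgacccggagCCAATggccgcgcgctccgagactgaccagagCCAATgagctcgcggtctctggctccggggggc

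The CCAAT letters began at −65 and −33, so that the summits of WT and the deletion, at −27 bp and −33 bp, lay beside or on the nearer one. CCAAT was in 39.2% of all promoter windows, which run from 250 bp before to 50 bp after the start, and GGGCGG in 47.7%. Of the 9 genes, 3 held CCAAT (Stat3, Jak1 and Il6st) and 7 held GGGCGG (all but Stat5a and Stat6) in the window of the 5′-most start. The window of the second Stat5a start held 2 GC boxes, at −197 and −128. The TATA letters TATAAA, in 13.2% of all windows, were in 0 of the 9.

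Lifr encodes the receptor for leukemia inhibitory factor, which pairs with gp130. By fold enrichment its promoter varied little, at 13.5 in Cho Rep1, 14.4 in Cho Rep2, 14.1 in WT and 12.1 in the deletion. The Cho mean was 14.0 ± 0.643 (SD, n = 2), and WT lay within it. By pileup over library background the promoter ran from 22.7 in Cho Rep1 to 83.2 in WT. A second RefSeq start of Lifr held no peak within 1 kb in any library.

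Of the kinases, Jak1 serves most receptors that use gp130. It had the highest promoter fold enrichment of the 9 genes in Cho Rep2, WT and the deletion, and the next to highest in Cho Rep1. The values were 25.3, 31.5, 21.5 and 18.1 in Cho Rep1, Cho Rep2, WT and the deletion. In WT this was the 96.9th percentile of all promoters with a peak. The Cho mean was 28.4 ± 4.34 (SD, n = 2), with both genotypes below both replicates by fold enrichment. By pileup over library background they were not, at 43.1 in Cho Rep1, 140.5 in Cho Rep2, 138.7 in WT and 99.0 in the deletion. The 4 summits lay from −134 bp to −87 bp, around a CCAAT box at −121, shown in capitals with the GC box at −49. The bases lie at chr4:100937829-100938078 on the minus strand of NCBIM37, from RefSeq.

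Jak1 promoter: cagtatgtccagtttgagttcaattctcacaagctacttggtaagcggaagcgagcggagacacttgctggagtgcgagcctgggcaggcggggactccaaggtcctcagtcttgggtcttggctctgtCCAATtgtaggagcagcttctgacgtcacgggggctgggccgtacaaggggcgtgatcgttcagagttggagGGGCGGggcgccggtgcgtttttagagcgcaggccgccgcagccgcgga

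The genes whose promoter profile over the 4 libraries was most like that of Jak1 were Sar1a, Bcas3 and Rfc5, at distances of 2.98, 3.05 and 3.21 in percentile units among 9586 genes. At Sar1a, the nearest, fold enrichment was 26.2, 31.6, 20.4 and 17.8.

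Jak2, the kinase of the growth hormone receptor, had promoter values of 15.2 in Cho Rep1, 10.1 in Cho Rep2, 11.4 in WT and 10.7 in the deletion. The Cho mean was 12.7 ± 3.60 (SD, n = 2), and both genotypes fell between the Cho replicates by fold enrichment. By pileup over library background both genotypes lay above both replicates. The values were 25.6 in Cho Rep1, 91.0 in Cho Rep2, 114 in WT and 94.2 in the deletion.

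Of the STAT genes, Stat3 encodes the main factor downstream of gp130. Fold enrichment at its promoter was 28.7 in Cho Rep1 and 20.8 in Cho Rep2, against 13.3 in WT and 13.4 in the deletion. It ranked 1 of the 9 in Cho Rep1 and 5 in WT. By summit pileup over library background, the order changed, with 49 in Cho Rep1, 192 in Cho Rep2, 136 in WT and 110 in the deletion.

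Stat5a and Stat5b lie next to each other on chromosome 11 and encode near-identical factors of growth hormone and prolactin signalling. The strongest promoter peak of Stat5a had a fold enrichment of 11.4 in Cho Rep1, 25.4 in Cho Rep2, 14.0 in WT and 14.3 in the deletion. Its summit lay at 769, 763, 766 and 761 bp, nearer to the second RefSeq start of the gene, from which it lay at −59, −65, −62 and −67 bp. A further peak stood near the first start, of 10.6 in Cho Rep2, 10.9 in WT and 10.1 in the deletion, and was not called in Cho Rep1.

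Stat5b had the lowest promoter values of the 9 in both Cho replicates, 5.07 and 9.68, with 7.53 in WT and 8.97 in the deletion. The summits were not at one place. They lay at −40 bp in Cho Rep1, −749 bp in Cho Rep2, 228 bp in WT, with the deletion on the same side of the start as WT. The second start of Stat5b, inside the gene, also held a peak in 3 libraries, of 21.9 in Cho Rep2, 7.96 in WT and 9.56 in the deletion.

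The 80 bases before the second starts of Stat5a and Stat5b are shown because both genes carried a peak there, with the longest run that they share in capitals. They lie at chr11:100721718-100721797 on the plus strand and at chr11:100683885-100683964 on the minus strand of NCBIM37.

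Stat5a, before the second start: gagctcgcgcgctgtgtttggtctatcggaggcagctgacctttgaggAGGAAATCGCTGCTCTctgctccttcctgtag
Stat5b, before the second start: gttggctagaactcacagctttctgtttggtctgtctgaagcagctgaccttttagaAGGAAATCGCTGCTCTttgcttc

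The shared run was 16 bases long and began at −32 from the Stat5a start and −23 from the Stat5b start. The summits at Stat5a lay before this run. Those at Stat5b lay 3 bp after the start in Cho Rep2, 15 bp in WT and 40 bp in the deletion.

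Stat6 encodes the factor of interleukin-4 and interleukin-13 signalling. It had one of the lowest values, 8.02 in Cho Rep1, 10.2 in Cho Rep2, 7.22 in WT and 8.59 in the deletion. The Cho Rep1 summit lay at 961 bp, while a weaker peak of 5.91 at 54 bp matched the place of the others, which lay from −11 bp to 34 bp. Its promoter window held none of the motifs searched.

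Socs3, the inhibitor, had a promoter fold enrichment of 14.8 in both Cho replicates, 10.6 in WT and 7.16 in the deletion. The Cho mean was 14.8 ± 0.00374 (SD, n = 2), and both genotypes lay below it. By summit pileup over library background, the Cho replicates were far apart, at 24.9 and 153, so their closeness belonged to fold enrichment alone. WT was at 161 by that measure and the deletion at 95.8. The local background under the Socs3 peak was 12.6 times the library background in WT and 12.0 times in the deletion, the highest of the 9 genes in both lists.

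The Socs3 promoter was the only one of the 9 with a GAS motif, which was in 7.93% of all promoter windows. The 250 bases before the start lie at chr11:117830681-117830930 on the minus strand of NCBIM37, from RefSeq. Capitals mark the GAS motif TTCTTAGAA at −154, a CTCF core (CC, 3 bases of any kind, AG, 1 of any kind, GGC) read on the other strand at −229 and a GC box at −112.

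Socs3 promoter: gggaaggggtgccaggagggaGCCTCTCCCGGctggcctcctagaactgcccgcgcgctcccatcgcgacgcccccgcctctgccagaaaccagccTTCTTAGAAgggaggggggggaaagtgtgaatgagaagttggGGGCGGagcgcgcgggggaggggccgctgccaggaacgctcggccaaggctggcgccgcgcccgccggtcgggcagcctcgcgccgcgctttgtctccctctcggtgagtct

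The summits of the 4 libraries lay from 29 bp to 67 bp after the start, outside the bases printed. A weaker peak lay on the upstream side, with a fold enrichment of 3.93 at −713 bp in WT and 4.75 at −647 bp in the deletion. A match to a motif describes letters and was not tested for binding.

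Across the 9 genes, promoter fold enrichment was highest in Cho Rep2 at 6 genes (64.3% of all promoters called in all 4 libraries) and in Cho Rep1 at 3 (27.4%). At 4 genes, Stat3, Jak1, Il6st and Socs3, both Cho replicates exceeded WT and the deletion by fold enrichment (41.3%). By pileup over library background Cho Rep1 was lowest at every gene, so this held for fold enrichment alone. Ordered by Cho mean, the genes ran Jak1, Stat3, Il6st, Stat5a, Socs3, Lifr, Jak2, Stat6 and Stat5b. Of the 8 neighbouring pairs, 7 were no farther apart than the larger SD of the pair, and Socs3 and Lifr were the exception, 0.810 apart. In Cho Rep1 100% of entries had 1 constant background, against 40.9% in Cho Rep2, so the order of the Cho replicates by fold enrichment and the settings of the lists cannot be told apart.

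The deletion was then compared with WT at the promoters. By fold enrichment, 0 of the 9 genes were 2-fold apart, where 1.02% of 10448 promoters called in both lists were 2-fold higher in the deletion and 0.0766% were 2-fold lower. By pileup over library background it was also 0 of the 9, where 0.278% were 2-fold higher and 0.258% lower. The log2 ratio of deletion to WT was −0.57 at Socs3, −0.25 at Jak1, −0.23 at Il6st, −0.22 at Lifr and −0.09 at Jak2. It was 0.01 at Stat3, 0.03 at Stat5a and 0.25 at both Stat5b and Stat6. Of the 9 genes, 5 were higher in WT, against 48.1% of all promoters, and their median log2 ratio was −0.09, against 0.01.

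Socs3 was the farthest out. Its summit pileup was 58 tags in WT and 60 in the deletion, although the deletion list was the deeper. Over library background the ratio of deletion to WT was 0.596, with an exact 95% counting interval from 0.408 to 0.870. This and all other intervals cover counting error only. Socs3 was the only 1 of the 9 whose interval excluded 1 in this way. Among all promoters called in both lists 4.88% had such an interval below 1 and 0.0383% above 1. Its fold enrichment ratio was at the 0.392th percentile of these promoters.

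By pileup, the whole set of promoters was shifted toward WT, with a median log2 ratio of −0.27 and a ratio below 1 at 79.3% of promoters and 7 of the 9 genes. Relative to this median, Socs3 was at 0.716 with an interval from 0.491 to 1.05, and 0 of the 9 genes had an interval that excluded 1. The highest ratio was that of Stat6, 1.5 relative to the median promoter with an interval from 0.838 to 2.79, and the widest interval was that of Stat5b, from 0.625 to 2.73. With pileups of 13 to 58 tags in WT, differences of such size at 1 promoter were not detectable at this depth. Divided by local background with nothing added, the Socs3 log2 ratio was −0.68, at the 3.53th percentile, where the median promoter was at −0.27.

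**Figure D2:**
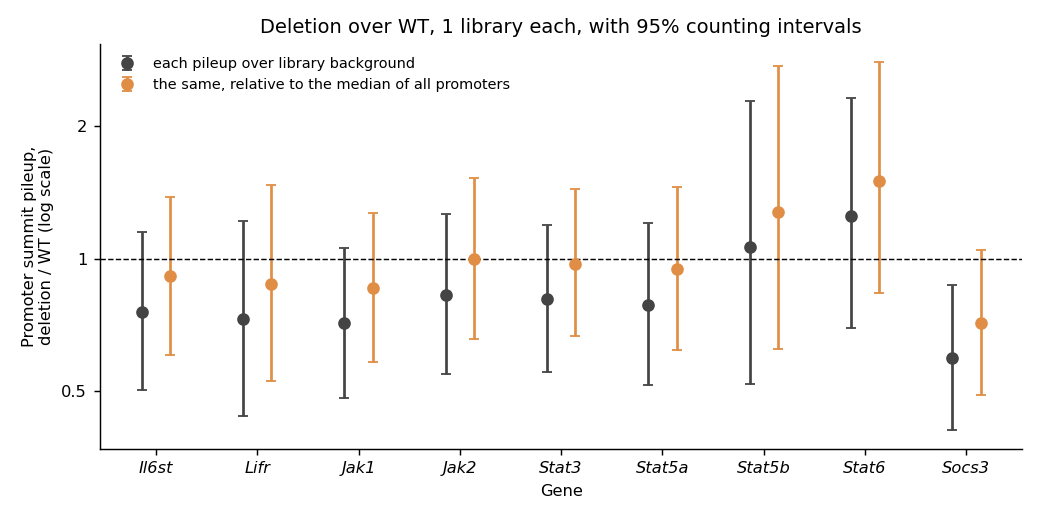
Summit pileup of the deletion over WT at the 9 promoters (log scale), with each pileup divided by library background and then also relative to the median of all promoters, with exact 95% counting intervals from 1 library each. Socs3 is lowest on both scales, at 0.596 and 0.716, and only the first of these intervals lies below 1.

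The loci were examined next. Counting each peak once, the 9 loci held 87 peaks in Cho Rep1, 175 in Cho Rep2, 125 in WT and 199 in the deletion. The loci of Stat3, Stat5a and Stat5b overlap, and a peak in more than 1 of them was listed under the first in this order. The deletion had 1.59 times as many peaks as WT at the loci and 1.86 times as many in all. When equal numbers of the strongest peaks were taken from each list, which makes the lists the same size by construction, the ratio at the loci was 0.991.

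Socs3 and Stat6 stood in the densest surroundings. The Socs3 locus had 23 peaks in WT, or 22.1 per 100 kb, the 99.8th percentile of 14371 gene loci with a median of 5.83. The Stat6 locus had 22 peaks, or 18.6 per 100 kb, at the 98.9th percentile. The Lifr locus was the sparsest, with 9 peaks and 5.36 per 100 kb, at the 46.1th percentile. Both dense loci stayed at the top in the deletion, with 29.8 per 100 kb at Socs3 and 29.7 at Stat6, against a median of 10.5. Both loci are short, so their windows are mostly flanking sequence, including Lrp1, Nab2 and Tmem194 beside Stat6 and Pgs1 beside Socs3.

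**Figure D3:**
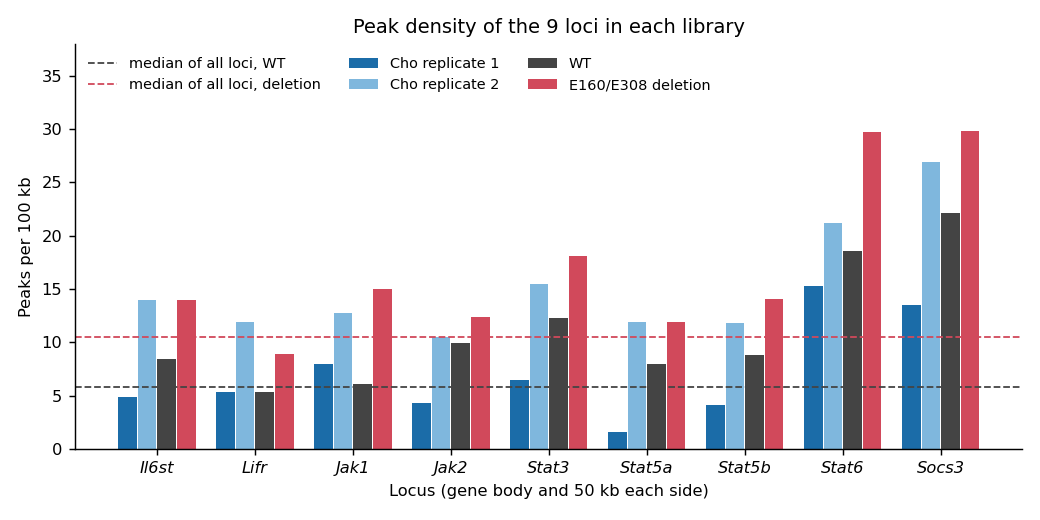
Peaks per 100 kb at each locus (gene body and 50 kb on each side) in the 4 libraries, with dashed lines at the median of 14371 gene loci in WT (5.83) and the deletion (10.5). Stat6 and Socs3 are the densest in every library, and Lifr lies below both medians.

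The peaks of WT were nearly all found again in the deletion. Of 125 WT peaks at the loci, 121 overlapped a deletion peak, or 96.8% (exact 95% interval 92.0% to 99.1%), against 95.9% of all WT peaks. In the other direction, 117 of 199 deletion peaks overlapped a WT peak, or 58.8% (51.6% to 65.7%), against 49.4% of all deletion peaks. Of Cho Rep1 peaks, 70.1% overlapped a WT peak and 92.0% a deletion peak, against 58.7% and 80.8% of all its peaks. A Cho Rep1 peak overlapped 57.6% of WT peaks, against 57.7%, and 50.8% of deletion peaks, against 43.1%.

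The 4 WT peaks with no deletion peak were weak, with 6.23 at the highest, at 74502 bp in the Lifr locus, and 0 of them had a Cho peak at the same distance. The 82 deletion peaks with no WT peak had a median pileup of 11 tags. Of these, 49 had a peak at the same distance in a Cho replicate and 10 in both. The share over all deletion peaks with no WT peak is not given here, so these counts have no background beside them. The strongest lay in an intron of Jak1 at 8488 bp, with 12.5 in the deletion, 3.80 in Cho Rep1 and 12.6 in Cho Rep2. The next were an exon of Lifr at 43949 bp, with 11.1 in the deletion and 12.9 in Cho Rep2, and an intron of Il6st at 36603 bp, with 10.6 and 20.7. Each of these was therefore called in at least 1 Cho replicate.

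Of the WT peaks at the loci, 113 were distal, with the summit over 1 kb from the start of each of the 9 genes, and 109 of these overlapped a deletion peak. Of the 113, 16 lay at promoters of other genes. The 72140 distal peaks taken for the genome are part of 87274 WT peaks overlapped in the deletion, and may leave such promoters out. The sets are thus not strictly alike. The median log2 ratio of fold enrichment was 0.20 at the 109, against 0.33 over the 72140. Of the 109, 3 were 2-fold higher in the deletion, or 2.75%, against 8.07%, and 0 were 2-fold lower, against 0.0832%. By pileup over library background, the median was −0.028, against 0.027. By this measure 1 of the 109 was 2-fold higher (3.38% of the genome's), the Socs3 peak at 19904 bp, and 1 was 2-fold lower (1.68%), at −45029 bp from Stat5a in an intron of Stat5b.

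The 3 peaks were at 19904 bp from Socs3, with 4.04 in WT and 12.7 in the deletion, at −29140 bp from Lifr, with 5.88 and 12.9, and at 105339 bp from Stat5b, with 4.41 and 9.22. At the Socs3 peak the deletion list had 1 wide peak where WT had 2, and the other WT peak, at 19376 bp, reached 14.4. Counting intervals of the pileup ratio excluded 1 at 5 of the 109, 2 higher (1.44% of the 72140 distal peaks of the genome) and 3 lower (0.973%). The 3 lower ones were at promoters of other genes, 1 at Rab5c and 2 at Nab2 and Tmem194. The 72140 may leave such promoters out, and among promoters called in both lists 4.88% had an interval below 1. The higher ones were the wide Socs3 peak and a peak in an intron of Lrp1, at −26395 bp from Stat6. At Lrp1, too, 1 deletion peak spanned 2 WT peaks, and against the stronger WT peak, at −26706 bp, the ratio was 0.944 with an interval from 0.561 to 1.62.

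**Figure D4:**
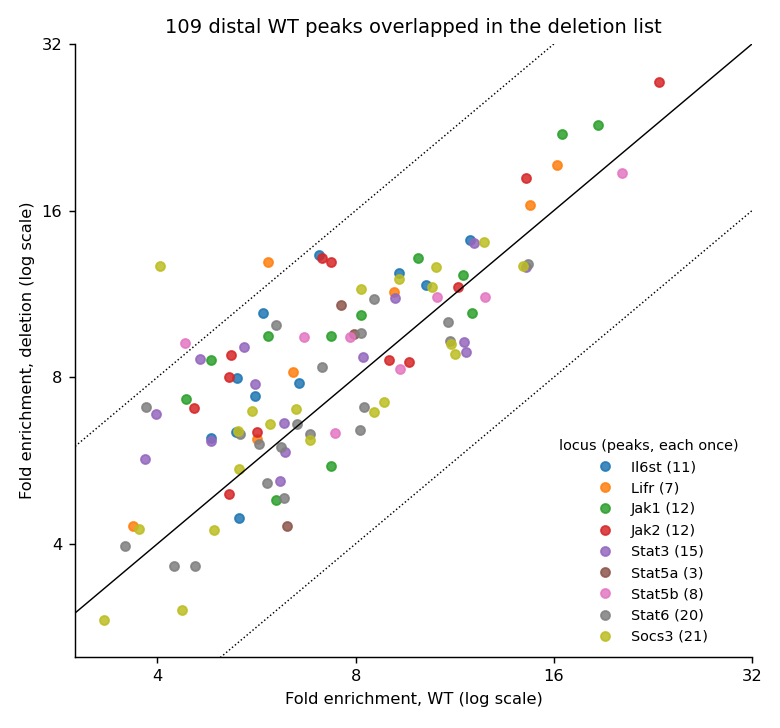
Fold enrichment in WT and in the deletion (both log scale) at the 109 distal WT peaks of the 9 loci that overlapped a deletion peak, coloured by locus, with a solid line at equal values and dotted lines at 2-fold. In this picture 3 points lie above the upper dotted line and 0 below the lower one.

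Distal sites shared by all 4 libraries were matched by distance from the gene start, within 150 bp. Of the 113 distal WT peaks, 44 were called in all 4, or 38.9%, against 38.4% of distal WT peaks within 50 kb of any gene start. Within 50 bp the number was 18, for which the share over the genome was not computed. Jak1 had 8 of 12, Stat6 12 of 20, Socs3 7 of 21 and Il6st 2 of 11. Stat5a had 0 of 3. The Stat6 count includes WT peaks at −1030 bp and 1064 bp, just outside the promoter window. These were matched to peaks inside it, at −986 bp and 961 bp in Cho Rep1 and −959 bp in the deletion. The Cho Rep1 peak at 961 bp was also taken as the Stat6 promoter peak.

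The strongest such site of Jak1 was inside the gene, at chr4:100875327-100875588 in an intron, 62366 bp from the start. Its fold enrichment was 39.7 in Cho Rep1, 32.9 in Cho Rep2, 18.7 in WT and 22.8 in the deletion. In Cho Rep1, Cho Rep2 and the deletion it exceeded the Jak1 promoter by fold enrichment. By pileup over library background it did so in Cho Rep1 alone, at 68.0 against 43.1, and was below it in Cho Rep2, at 101.2 against 140.5, in WT, at 91.5 against 138.7, and in the deletion, at 94.2 against 99.0. In WT it was at the 97.9th percentile of all peaks. Another peak in the Jak1 locus, at 30652 bp in WT, had 10.1, 35.5, 16.5 and 22.0 in the same order of libraries, and was named after its values were seen. The strongest intergenic site of Stat3 was at −40560 bp, at chr11:100841252-100841519, with 8.87, 23.5, 12.1 and 14.0 in Cho Rep1, Cho Rep2, WT and the deletion.

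At Il6st the strongest site in all 4 libraries was intergenic at −16727 bp, at chr13:113237488-113237627. It had 5.91 in Cho Rep1, 18.9 in Cho Rep2, 10.2 in WT and 11.7 in the deletion. In Lifr the site was at −37116 bp, with 15.2, 21.9, 14.7 and 16.3 in the same order, and at Socs3 it was at 19376 bp, with 12.2, 19.9, 14.4 and 12.7. By pileup over library background the Il6st site was at 38.8 in WT and 31.9 in the deletion, and the Lifr site at 74.9 and 62.3, the reverse of their order by fold enrichment.

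At Stat5b, Stat6 and Jak2 the strongest shared site was the promoter of a neighbour, Rab5c, Nemp1 and Plgrkt. The one at Plgrkt, 110126 bp from the Jak2 start, was above the Jak2 promoter in each library by fold enrichment, with 16.5, 41.5, 23.1 and 27.3 in Cho Rep1, Cho Rep2, WT and the deletion. By pileup over library background it was not above it in WT, at 111 against 114.

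**Figure D5:**
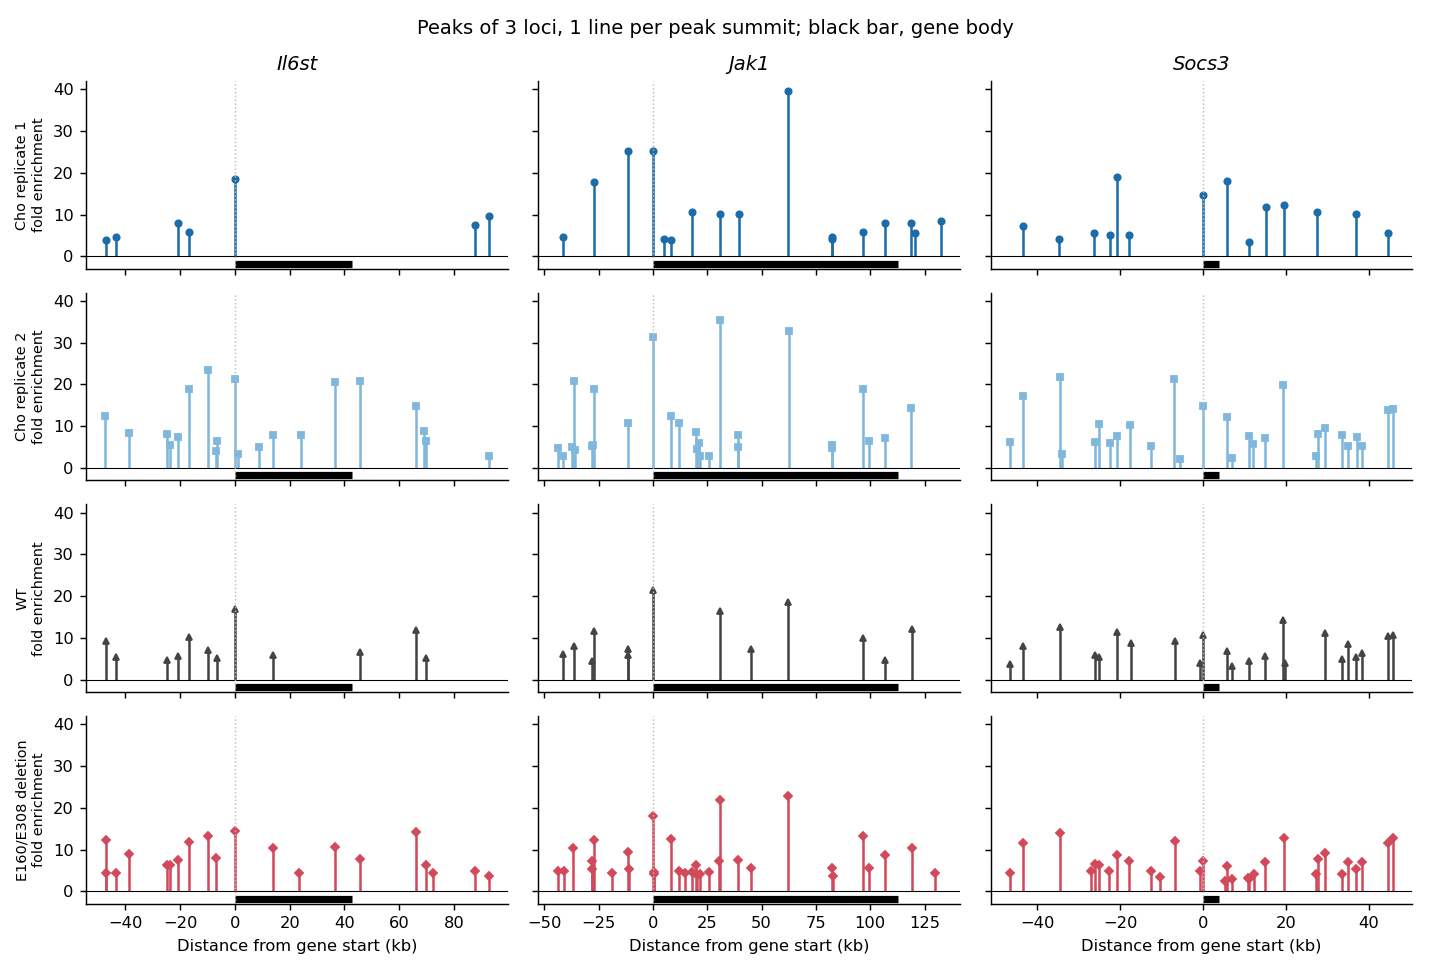
Peaks of the Il6st, Jak1 and Socs3 loci in each library, with distance from the gene start in kb along the strand of the gene and fold enrichment as height. The intronic Jak1 site at 62366 bp is the tallest line of its locus in Cho Rep1 (39.7) and the deletion (22.8), and peaks crowd both sides of the short Socs3 gene.

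The bases around the WT summits, 50 on each side, are shown for the sites that held a motif near the summit, from NCBIM37 on the strand of the gene. Capitals mark AP-1 motifs (TGANTCA, bound by Fos and Jun proteins) and GAS motifs (TTCNNNGAA).

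Il6st, −16727 bp, chr13:113237501-113237601: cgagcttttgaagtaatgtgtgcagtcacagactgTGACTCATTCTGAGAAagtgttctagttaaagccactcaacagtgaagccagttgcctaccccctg
Jak1, 62366 bp, chr4:100875412-100875512: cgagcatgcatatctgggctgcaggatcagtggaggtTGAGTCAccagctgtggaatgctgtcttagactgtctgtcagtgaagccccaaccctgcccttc
Stat3, −40560 bp, chr11:100841364-100841464: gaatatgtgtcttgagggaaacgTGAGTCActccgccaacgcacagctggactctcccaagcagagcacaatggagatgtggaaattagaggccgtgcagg
Socs3, −6841 bp, chr11:117837471-117837571: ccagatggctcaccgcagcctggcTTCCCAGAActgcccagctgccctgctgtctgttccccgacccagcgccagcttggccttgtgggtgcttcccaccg

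At the Il6st site the AP-1 and GAS motifs lay end to end. The Socs3 site at −6841 bp is shown because it was the strongest WT peak of the Socs3 locus with a GAS motif near its summit. It had 9.33 in WT, 21.2 in Cho Rep2 and 12.0 in the deletion, and was not called in Cho Rep1. The sites at Il6st, Jak1 and Stat3 were picked by height, and of the sites so picked these are the ones that held a motif.

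Counted over the loci, a GAS motif, or TTC and GAA with 4 bases between them, lay within 50 bp of the summit of 5 of 125 WT peaks, or 4.0% (exact 95% interval 1.31% to 9.09%), against 5.65% of all WT peaks. GAS itself was at 3 of 125, against 3.35%, and the wider form at 2, against 2.38%. The 5 were in the Il6st locus (3) and the Socs3 locus (2). AP-1 motifs were more frequent, at 20 of 125, or 16% (10.1% to 23.6%), against 13.7% of all WT peaks. The CTCF core was at 1 of 125, against 3.06%. Each interval holds the share of all WT peaks, so no difference was detectable with 125 peaks.

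Other genes of the pathway were counted from a list by role, of which 49 of 65 could be measured. Of these, 33 had a promoter peak in Cho Rep1, 35 in Cho Rep2, 32 in WT and 37 in the deletion, 30 had one in all 4 and 11 in none. Over all genes the shares were 59.1%, 66.3%, 62.2% and 67.5%, with 56.9% in all 4, so the list as a whole was near the background. Of the ligand genes, 2 of 11 were called in all 4 libraries. These were Il6, the founding cytokine of its family, with 19.0, 23.9, 13.4 and 14.6 in Cho Rep1, Cho Rep2, WT and the deletion, and Ctf1, which encodes cardiotrophin-1, with 5.49, 7.04, 7.11 and 7.66.

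Receptor genes had 10 of 17 called in all 4. The highest of these in WT was Ifnar1, a chain of the type I interferon receptor, at 20.2, and the lowest was Il13ra1, at 6.62. Ghr, the growth hormone receptor, is named outside the rule as the partner of Jak2, and had 20.7, 18.7, 11.8 and 10.5. Both other kinase genes were called in all 4, Tyk2 with 14.2 in WT and Jak3, known for its role in lymphocytes, with 6.77.

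Of the other STAT genes, Stat2 had 20.3, 34.5, 22.1 and 19.5, above each of the 4 STAT genes described here in all libraries but Cho Rep1, where Stat3 was higher. Stat4 had 0 peaks. Inhibitor genes had 7 of 8 called in all 4, with Ptpn1 the highest in WT at 18.6 and Socs1 the lowest at 6.89. Target genes had 8 of 9 called in all 4, from 3.29 at Junb to 14.2 at Irf1 in WT.

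All 32 pathway promoters called in WT were also called in the deletion. Igf1, Epor, Lif, Cntf and Il13 were called in the deletion and not in WT. They had 10.4, 7.72, 6.27, 4.01 and 3.07 in the deletion, and Igf1 also had 8.45 in Cho Rep1 and 21.1 in Cho Rep2. The deletion list was the deeper, and the share of such promoters over all genes is not given here. Of the 32 called in both, 0 were 2-fold apart by either measure, and their median log2 ratio of fold enrichment was −0.12, against 0.01 for all promoters. By role the medians were 0.12 for ligands, −0.031 for receptors, −0.21 for kinases, −0.18 for the 1 STAT gene, −0.017 for inhibitors and −0.21 for targets. The other SOCS family genes measured were Socs1, Socs4 and Cish, of which Socs4 and Cish are named outside the rule. Their log2 ratios of fold enrichment were −0.33, 0.31 and 0.14, on both sides of 0. By pileup over library background they were −0.46, 0.14 and −0.11.

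Of the 9 genes, 4 share chromosome 11 with Sox9 and the deleted elements. Socs3 starts 5.19 Mb from the Sox9 start, and Stat3, Stat5a and Stat5b lie on its other side at −11.8, −11.9 and −11.9 Mb. The log2 ratios of fold enrichment on this chromosome were −0.57 at Socs3, 0.01 at Stat3, 0.03 at Stat5a and 0.25 at Stat5b. The ratios of pileup over library background were 0.596, 0.811, 0.786 and 1.06 in the same order. A part played by the distance from the deleted elements was not tested.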

How the data were processed

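ATAC-Seq peak lists of 4 libraries were read (Cho, 2 replicates; WT and E160/E308 deletion, 1 each, grouped by the labels). Per the submitters' processing notes, the authors used fastp, Bowtie2 2.4.4, Picard 2.20.7, SAMtools 1.9 and MACS2 2.2.4, and the q-value threshold of 0.05 is the one the study's methods give for peaks. Each deposited list gives per peak a fold enrichment (a ratio), the −log10 of the p-value and of the q-value, a score of 10 times the −log10 q-value, and a summit. These values move with depth and background. The entries were reduced to 1 peak per interval, the strongest.

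Cho Rep1, WT and the deletion used NCBIM37 (mm9). Cho Rep2 named sequences absent from NCBIM37 in 99 peaks and ran past its chromosome ends in 325, and was read as GRCm38, although the notes name mm9. No coordinates were converted. RefSeq promoter windows (GRCm38.p6) were placed on NCBIM37 by exact match, for 96.4% of 17492 genes, and the 5′-most start was used. This replaced the 5′ end of the gene record, which the design had named and which lay 10938 bp from the RefSeq start at Il6st in NCBIM37. At 7 loci with more than 1 RefSeq start, all distances were the same in both builds.

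From each fold enrichment and its p-value, the summit pileup was solved with a Poisson model (100% of entries in each list) and tested on simulated data. They were divided by library background. Pileup ratios have exact conditional binomial intervals and shares have Clopper-Pearson intervals, at 95%. Percentiles are among promoters with a peak in the same list. Motifs were searched on both strands. Python 3.11.15, numpy 2.4.6, pandas 2.3.3, scipy 1.17.1 and matplotlib 3.10.9 were used.

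The genes, lists and tests were chosen with earlier results of these data known. All 9 genes were named. Other pathway genes were named where highest or lowest of a role, and sites where strongest in all 4 libraries or in 1 list only. The genes Ghr, Socs4, Cish, Igf1, Epor, Lif, Cntf and Il13 were named outside this rule. Alternatives covered windows, starts, q-values, overlap, equal numbers of peaks and other measures.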

Additional observations from a re-analysis of the deposited data

How the results depend on the processing

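All 9 genes kept a promoter peak in each library within 2 kb, at any annotated start, at q below 1e-5 and with equal numbers of strongest peaks. At the 5′ end of the gene record, chosen after seeing the data, 7 had one in Cho Rep1 and 8 in each other library, and the median fold enrichment was 14.8, 11.8, 11.2 and 10.4 in Cho Rep1, Cho Rep2, WT and the deletion. As summit pileup over library background, which is another scale, the promoter medians were 24.9, 116, 114 and 92.6. The median log2 ratio of deletion to WT was −0.46 over tag depth and reversed to 0.40 with the −log10 q-value, which rises with depth. For shared distal peaks it reversed to −0.028 by pileup over background. The number of genes whose counting interval excluded 1 was 2 over tag depth (Socs3 and Jak1) and 0 relative to the median promoter, both chosen after seeing the data.

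With equal numbers of strongest peaks, the ratio of peak numbers was 0.991 and the shares overlapped were 85.3% of WT and 83.3% of deletion peaks. With reciprocal overlap of 50% they were 74.4% and 46.7%. The shares over all peaks under these settings are not given here. Distal sites in all 4 libraries were 18 within 50 bp. The share of WT peaks with a STAT motif was 12.0% within 100 bp of the summit, against 11.8% of all WT peaks, and 13.6% over whole peaks, against 11.4%, where within 50 bp it was below the share of all peaks. Leaving out either Cho replicate moved the Cho means to 5.07 to 31.5. No paired analysis was possible because the genotypes have 1 library each and no test was run. Depth limits what 1 promoter can show, with 13 to 58 tags at WT summits.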
